A study of Mus musculus with 6 samples.

Results

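Fut2, B4galnt2, Muc1, Muc4 and Muc13 encode membrane mucins and enzymes that finish the sugar chains of the intestinal surface, and they are 5 of the 51912 genes in the tables of sorted epithelial cells of the mouse small intestine. They were taken by symbol, and the choice was made with earlier results of these data known. The libraries came from C57BL/6 mice kept in 3 ways. Specific pathogen free (SPF) mice carried a microbiota without particular pathogens, germ free (GF) mice carried no microbiota, and antigen free (AF) mice lacked foreign antigens of both microbiota and food. Each group held 2 libraries, numbered 3 and 4 for SPF, 1 and 3 for GF, and 2 and 3 for AF. No genetic change, age, sex, diet or gate of the sort is given in the sources used here, nor whether a library held 1 mouse or a pool, so p-values measure the spread between these libraries, which may be technical.

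Mucins are proteins that carry dense clusters of sugar chains linked to serine and threonine. Secreted mucins such as Muc2, made by goblet cells, form the mucus gel, while membrane mucins stay anchored in the apical surface of the epithelial cell and form the glycocalyx. Each chain starts with a GalNAc added by a Galnt enzyme, is extended with galactose and GlcNAc, and is closed by terminal sugars. Fut2 adds the alpha-linked fucose of the H antigen, a sugar that gut bacteria bind and eat, and in the small intestine it is known to be induced by the microbiota through IL-22. B4galnt2 adds the terminal GalNAc of the Sda antigen.

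On the mouse assembly GRCm38, Fut2 (ENSMUSG00000055978) lies on the minus strand of chromosome 7 from 45648591 to 45666394, and B4galnt2 (ENSMUSG00000013418) on the minus strand of chromosome 11 from 95865943 to 95914891. Muc1 (ENSMUSG00000042784) lies on the plus strand of chromosome 3 from 89229057 to 89233381. Muc4 (ENSMUSG00000079620) and Muc13 (ENSMUSG00000022824) share the plus strand of chromosome 16, from 32735886 to 32782391 and from 33794037 to 33819934. All 5 are annotated as protein-coding genes.

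The promoters of Muc13 and B4galnt2 are shown because these were the members whose SPF libraries all stood above the GF and AF libraries in scaled counts. RefSeq windows (GRCm38.p6), running from 250 bases before an annotated start to 50 after it, existed for 4 of the 5 members, and Fut2 was not among them. Capitals mark the matches to the searched letters, and distances are counted to the first base of a match with the start as 0.
Muc13, first start, chr16:33793787-33794086, plus strand: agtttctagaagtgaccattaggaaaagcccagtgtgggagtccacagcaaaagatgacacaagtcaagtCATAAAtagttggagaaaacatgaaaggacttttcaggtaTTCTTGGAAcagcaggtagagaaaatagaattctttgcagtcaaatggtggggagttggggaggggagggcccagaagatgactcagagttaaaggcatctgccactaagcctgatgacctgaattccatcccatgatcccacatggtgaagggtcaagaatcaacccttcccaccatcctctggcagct
Muc13, second start, chr16:33794239-33794538, plus strand: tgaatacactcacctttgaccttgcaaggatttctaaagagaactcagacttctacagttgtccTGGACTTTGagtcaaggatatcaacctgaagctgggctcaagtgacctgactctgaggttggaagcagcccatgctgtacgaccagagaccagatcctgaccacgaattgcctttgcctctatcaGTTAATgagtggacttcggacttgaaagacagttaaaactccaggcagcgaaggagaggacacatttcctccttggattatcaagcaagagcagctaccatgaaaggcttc
B4galnt2, chr11:95914822-95915121, minus strand: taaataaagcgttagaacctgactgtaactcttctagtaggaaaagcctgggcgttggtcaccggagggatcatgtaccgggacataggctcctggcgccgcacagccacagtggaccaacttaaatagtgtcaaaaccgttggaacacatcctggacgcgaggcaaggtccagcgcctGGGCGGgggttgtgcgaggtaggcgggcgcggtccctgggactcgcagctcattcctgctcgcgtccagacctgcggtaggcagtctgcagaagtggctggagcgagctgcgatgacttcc
The first Muc13 window held the STAT element TTCNNNGAA at -140 and, on the opposite strand, the CDX element TTTATG at -180. Of all 32851 windows of this length, 8.3% held the former and 11.9% the latter on either strand. The second Muc13 window held the HNF4 element CAAAGTNCA on the opposite strand at -186 and the HNF1 element GTTAAT at -61, found in 1.41% and 7.1% of all windows. The B4galnt2 window held the GC box GGGCGG at -71, found in 35.7% of windows. Of the members not printed, the Muc4 window held the TATA box TATAAA (13.6% of windows) at -36, and the Muc1 window held it at -31 beside GC boxes at -91 and -49. These motifs do not overlap one another in the windows, and a match describes letters, not binding.

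Each library held 16109488 to 19417054 expected counts, and 11697 to 13715 genes reached 10 counts. Mitochondrial genes took 17.9% to 35.3% of the counts. Levels within a gene are given as CPM (counts scaled to a common library size) on library totals scaled by the trimmed mean of M values (TMM, factors 0.791 to 1.41), and levels between genes as TPM, the share of transcripts after allowing for length. All 10 villus enterocyte and all 10 goblet cell markers were detected in every library, while the 6 B and plasma cell markers summed to at most 0.779 CPM, with Mzb1 at 0 throughout. The 10 markers of intraepithelial and other T cells summed to 219.7 and 84.1 CPM for SPF. Their sums were 36.3 and 348.9 CPM for GF, and 18.7 and 13.0 CPM for AF. SPF replicate 4 stood apart in its markers. Its 10 goblet cell markers summed to 2809 CPM against 11943 to 29202 in the other libraries, its 8 Paneth cell markers to 41.7 against 926 to 5631, and its 10 crypt markers, with Ascl2 at 0, to 90.2 against 233 to 604. The 4 Y-linked genes examined were at 0 in both SPF libraries and summed to 52.2 to 61.7 CPM in the GF and AF libraries. Xist, the X-inactivation RNA of females, was 129.7 and 96.6 CPM for SPF and 14.8 CPM in GF replicate 3, which also held Y-linked RNA, and at most 0.178 CPM in the other 3 libraries. Each group also carries its own date-like mark, so sex, date and housing cannot be told apart in any comparison with SPF, nor date and housing in AF versus GF.

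Per length, the members kept 1 order in all 6 libraries, which was Muc13, B4galnt2, Muc4, Fut2 and Muc1 from highest to lowest. Muc13 exceeded B4galnt2 by 3.41-fold to 7.61-fold in TPM, and Muc4 by 29.7-fold to 89.1-fold. B4galnt2 exceeded Fut2 by 17.8-fold to 166-fold. Muc4 exceeded Fut2 by 1.65-fold in GF replicate 3, the smallest of these gaps, and by 14.2-fold in SPF replicate 4. The effective length behind TPM also moved, and ranged from 1406 to 2689 bases for Fut2 and from 2915 to 5305 for Muc4, but only from 2762 to 2766 for Muc13.

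**Figure D1:**
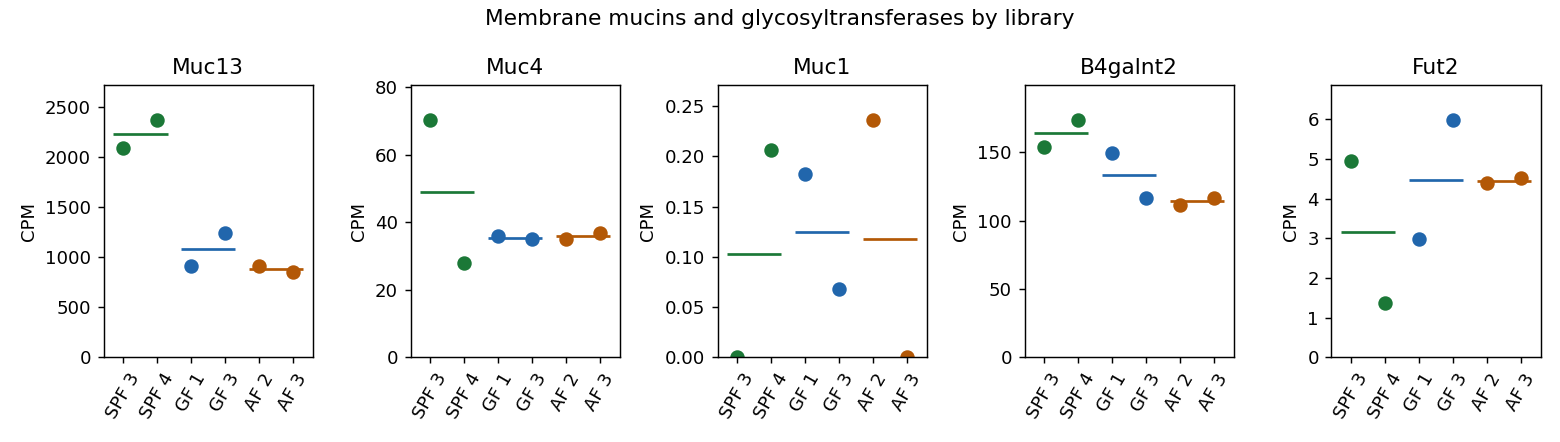
Level of each gene in CPM (vertical axes, linear from 0 and scaled per gene) in the 6 libraries, with points for libraries and bars for the mean of 2 libraries. Both SPF points of Muc13 (2083 and 2361 CPM) lie above the 4 others, which reach at most 1239.5 CPM, while Muc4 and Fut2 spread most within SPF.

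Muc13, an abundant membrane mucin of enterocytes and goblet cells with a short extracellular mucin domain, was the member that differed most. Its level was 2083 CPM for SPF replicate 3 and 2361 CPM for SPF replicate 4. In GF it was 914.6 CPM in replicate 1 and 1239.5 CPM in replicate 3. In AF it was 914.7 CPM in replicate 2 and 852 CPM in replicate 3. Both SPF libraries thus stood above every other library, while the GF and AF ranges met at their edges. The means were 2222 ± 196 CPM for SPF, 1077 ± 229.8 CPM for GF and 883.5 ± 44.0 CPM for AF (SD, n = 2 each). These values rest on 11646 to 45492 counts per library, so counting error is small beside the spread between libraries. In TPM, Muc13 ranked 75 and 85 among all genes in the SPF libraries and between 146 and 244 in the others.

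The fitted SPF level of Muc13 was 2.06-fold the GF level, a log2 fold change of -1.04 for GF versus SPF (SE 0.37). By the quasi-likelihood test of edgeR its unadjusted p was 0.0309 and its adjusted p over all 13644 genes tested was 0.738. Against AF the SPF level was 2.52-fold (log2 fold change -1.33, SE 0.38), with an unadjusted p of 0.0120 and an adjusted p of 0.389. Between AF and GF the log2 fold change was -0.29 (SE 0.37, adjusted p = 1.00), so these groups did not differ beyond the spread. The quasi-likelihood test of any difference among the groups gave an adjusted p of 0.659, and it called 0.0293% of genes. These comparisons share libraries and are not independent of one another.

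The call for Muc13 in AF versus SPF depended on the tool. DESeq2 gave a log2 fold change of -1.34 with an adjusted p of 8.39e-04, and the likelihood ratio test of edgeR an adjusted p of 0.0341. Limma on log2(TPM + 1) gave an adjusted p of 0.302. For GF versus SPF the adjusted p was 0.0508 with DESeq2, 0.281 with the likelihood ratio test and 1.00 with limma. Without SPF replicate 4, the library poor in crypt and goblet markers, the quasi-likelihood log2 fold changes of Muc13 were -0.96 for GF and -1.24 for AF versus SPF, with adjusted p of 1.00 and 0.466. Without SPF replicate 3 they were -1.14 and -1.42, with adjusted p of 0.120 and 0.0762.

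The summed markers of villus enterocytes and of the proximal small intestine were highest in SPF replicate 4, as was Muc13. The 10 villus markers, all tested and none at 0, summed to 29147 and 60008 CPM for SPF, 21778 and 34402 CPM for GF, and 29280 and 21551 CPM for AF. The 8 proximal markers were all tested and none was at 0. They summed to 11496 and 27594 CPM for SPF, 6560 and 11074 CPM for GF, and 9105 and 6066 CPM for AF. In this sum both SPF libraries stood above all others, with Apoa4 alone at 6933 and 17985 CPM for SPF. Lct, Onecut2 and Cybrd1 of this list did not keep that order. Cybrd1 was 11.9 and 28.1 CPM for SPF, 7.07 and 38.5 CPM for GF, and 48.6 and 37.4 CPM for AF. The 8 distal markers summed to 869 and 890 CPM for SPF, 1720.5 and 919 CPM for GF, and 1104 and 735 CPM for AF. The villus and proximal lists share Apoa4, Fabp1 and Lct. The part of these lists in the difference of Muc13 was not tested. In sorted bulk cells, fewer cells of a type and less RNA per cell cannot be told apart.

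Muc4, a very large membrane mucin that also binds the receptor ErbB2, differed between the SPF libraries more than between groups. It was 70.2 CPM for SPF replicate 3 and 28.0 CPM for SPF replicate 4, the highest and the lowest of the 6 values. The GF libraries were at 35.8 and 35.0 CPM and the AF libraries at 35.2 and 37.0 CPM, all between those SPF values. The log2 fold change was -0.47 (SE 0.41, adjusted p = 0.820) for GF versus SPF and -0.45 (SE 0.41, adjusted p = 0.730) for AF versus SPF. It was 0.026 (SE 0.41, adjusted p = 1.00) for AF versus GF. Leaving out SPF replicate 3 turned both differences from SPF around, to 0.34 and 0.36, whereas leaving out SPF replicate 4 gave -0.99 and -0.96. SPF replicate 4 was also the lowest library in the 10 goblet and the 10 crypt markers, whose part in this value was not tested. Exons of Muc4 overlap those of Muc20, another membrane mucin on the opposite strand, over 627 bases, but Muc20 had only 50 counts in all.

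Muc1, the membrane mucin best known from glandular and gastric epithelium, was near the limit of detection. It had 0 and 3 counts in SPF, 5 and 1 in GF, and 3 and 0 in AF, 12 counts in all. Its highest level was 0.236 CPM, which equals 3 counts in AF replicate 2. The limit that a count of 0 allows was 0.109 to 0.236 CPM per library, for counting error only. Muc1 did not pass the filter on low counts, so it has no test and no fold change is given.

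B4galnt2 differed little between groups. It was 154 CPM for SPF replicate 3 and 173 CPM for SPF replicate 4. The GF values were 149.7 CPM in replicate 1 and 117 CPM in replicate 3, and the AF values 112 CPM in replicate 2 and 117 CPM in replicate 3. The SPF libraries again stood above all others, but by a few CPM over GF replicate 1, and the GF and AF ranges overlapped. The means were 163.7 ± 13.5 CPM for SPF, 133 ± 23.3 CPM for GF and 114 ± 3.67 CPM for AF (SD, n = 2 each). The log2 fold change was -0.30 (SE 0.24, adjusted p = 0.812) for GF versus SPF, -0.52 (SE 0.24, adjusted p = 0.480) for AF versus SPF and -0.22 (SE 0.24, adjusted p = 1.00) for AF versus GF. Leaving out SPF replicate 4 gave -0.22 for GF and -0.44 for AF against SPF. In TPM, GF replicate 1 held the highest B4galnt2 level at 146, above both SPF libraries at 139 and 96.4. The SPF libraries thus did not stand above all others in TPM. The mean TPM kept the order SPF, GF and AF, at 117.6, 104.6 and 62.1. TPM takes no TMM scaling, whose factor was 1.41 in GF replicate 1 and 1.25 and 0.824 in SPF. With limma on TPM the median of all genes moved by -0.319 for AF versus SPF. These TPM levels of B4galnt2 thus include shifts of whole libraries.

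Fut2 was low in every library, SPF included. It had 108 and 20 counts in SPF, 82 and 88 in GF and 56 and 76 in AF, 430 in all. Its level was 4.95 and 1.37 CPM for SPF, 2.99 and 5.97 CPM for GF, and 4.40 and 4.52 CPM for AF. The highest value came from GF replicate 3 and the lowest from SPF replicate 4, and the AF libraries lay inside the range of SPF. The log2 fold change was 0.48 (SE 0.67) for both GF and AF versus SPF, with adjusted p of 0.887 and 0.832, and 0.00074 (SE 0.65, adjusted p = 1.00) for AF versus GF. An SE of this size leaves room for a 2-fold difference in either direction in AF versus GF. Leaving out SPF replicate 4 gave -0.16 for GF and -0.15 for AF against SPF, and leaving out SPF replicate 3 gave 1.68 and 1.69. Fut2 followed the same library as Muc4 in SPF, the one lowest in goblet and crypt markers, and the part of those markers was not tested.

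**Figure D2:**
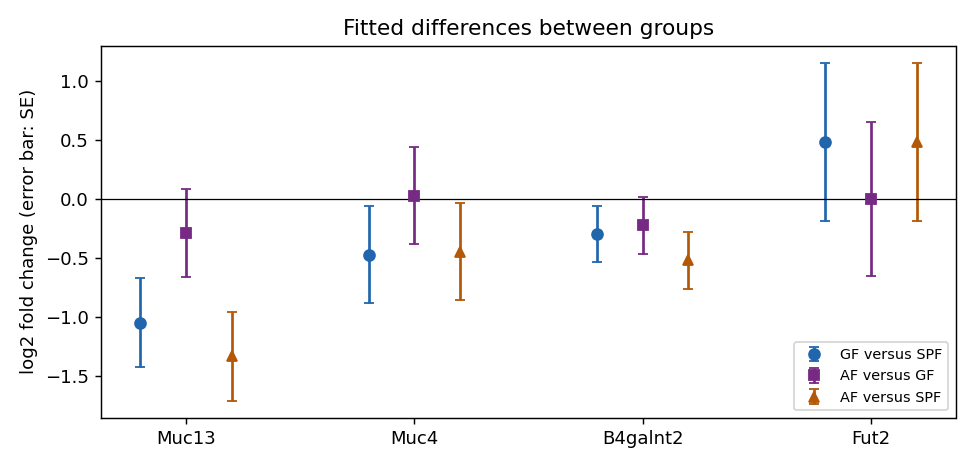
Log2 fold change of the 4 tested members (horizontal axis) in the 3 comparisons, from the edgeR fit of 6 libraries, with points for estimates and bars for 1 SE. Muc13 lies lowest against SPF, at -1.04 and -1.33, and the AF versus GF points lie within 1 SE of 0.

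The quasi-likelihood test called 0 of the 4 tested members in GF versus SPF, where it called 0.0147% of all genes. It called 0 of 4 in AF versus GF, where it called 0.0147%, and 0 of 4 in AF versus SPF, where it called 0.044%. An unadjusted p under 0.05 was reached by 1 of 4 in GF versus SPF (6.71% of all genes), 0 of 4 in AF versus GF (3.6%) and 1 of 4 in AF versus SPF (11.3%), each time Muc13. DESeq2 called 0 of 4 in GF versus SPF (0.586% of all genes), 0 of 4 in AF versus GF (0.374%) and 1 of 4 in AF versus SPF (1.97%). The likelihood ratio test called 0 of 4 (0.711%), 0 of 4 (0.388%) and 1 of 4 (2.18%) in the same order. Limma called 0 of 4 in each, with 0.0413%, 0.066% and 0.0578% of the 12120 genes it tested. Both GF libraries stood below both SPF libraries for 2 of 4 members (17.1% of all genes), and both AF libraries did for 2 of 4 (22.6%). All 4 GF and AF libraries stood below SPF for Muc13 and B4galnt2, as they did for 11.8% of all genes. With so few members, a share above these backgrounds is a description.

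Among the membrane mucins, Muc3, a large mucin of the enterocyte brush border, was the only other gene near the level of Muc13. Its level per length was 534 and 553 TPM in SPF, 566 and 488 TPM in GF, and 675 and 511 TPM in AF. Muc13 stood above Muc3 in both SPF libraries, at 1049 and 734 TPM, and below it in all 4 GF and AF libraries, at 238 to 498 TPM. Muc13 made up 61.2% and 55.4% of the summed membrane mucin TPM in SPF, 42.9% and 40.2% in GF, and 24.6% and 33.6% in AF. These shares take Muc13 from the same values as above and are a description. The log2 fold change of Muc3 was -0.17 (SE 0.47) for GF and 0.42 (SE 0.47) for AF versus SPF, with adjusted p of 0.934 and 0.783. Muc3 and Muc3a are near relatives, and reads shared between them were divided by RSEM.

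**Figure D3:**
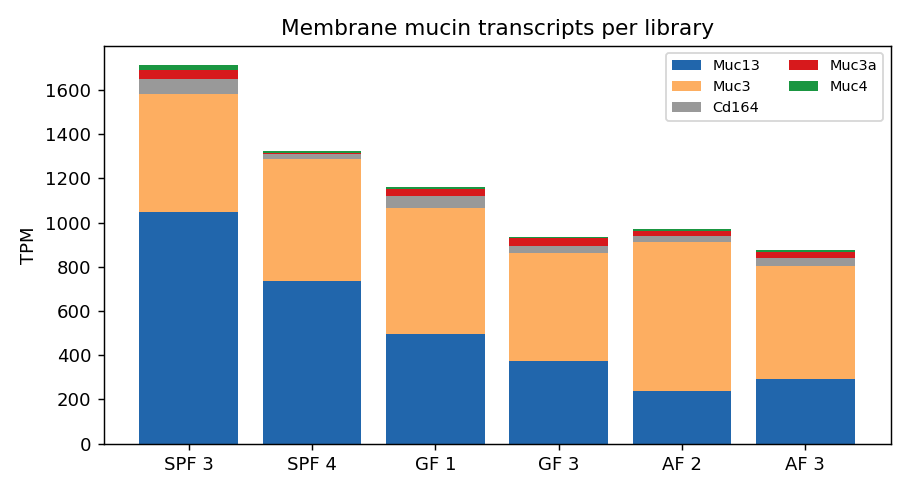
Summed TPM (vertical axis, linear from 0) of the 5 membrane mucins with the most transcripts in each of the 6 libraries, stacked by gene. The Muc13 segment is 1049 and 734 TPM in the SPF bars and 238 to 498 TPM in the others, while the Muc3 segment lies between 488 and 675 TPM.

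Of the 11 listed membrane mucins, 5 passed the filter. The median log2 fold change of those was -0.17 for GF and -0.39 for AF versus SPF, beside 0.022 and 0.011 over all genes. Without SPF replicate 3 these medians turned to 0.22 and 0.11, whereas leaving out SPF replicate 4 gave -0.70 and -0.75. The GF median was -0.49 without GF replicate 3 and -0.32 without either AF library, and 6 genes passed the filter in these fits other than that without SPF replicate 3. Cd164, a small membrane sialomucin, was 88.3 ± 27.8 CPM for SPF, 80.4 ± 1.85 in GF and 67.2 ± 4.14 in AF (SD, n = 2 each). Emcn, Muc15 and Muc16 were at 0 in every library. The secreted mucin Muc2 was 2325 and 200.3 CPM for SPF, 1004 and 1917 CPM for GF, and 1452 and 1225 CPM for AF. The lowest value again came from SPF replicate 4, and the adjusted p was 0.963 for GF and 0.985 for AF versus SPF.

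Fut2 was a minor fucosyltransferase RNA, at 2.13% to 11.7% of the summed TPM of its list. Fut8, which adds the core fucose of N-glycans, was 40.2 ± 7.73 CPM for SPF, 38.1 ± 8.82 in GF and 36.5 ± 1.51 in AF (SD, n = 2 each). Fut4, which adds the fucose of Lewis x structures, was 16.1 and 14.2 CPM for SPF, 16.8 and 14.0 CPM for GF, and 10.6 and 8.85 CPM for AF. Both AF libraries stood below the 4 others. Against GF the log2 fold change was -0.67 (SE 0.24, unadjusted p = 0.0300, adjusted p = 1.00), and against SPF -0.64 (SE 0.24, unadjusted p = 0.0348, adjusted p = 0.406). Fut1, the other enzyme that can make the H antigen, had 15 counts in all, and its relative Sec1 had 3. None of the 7 tested of 11 listed fucosyltransferases was called by any of the 4 tools.

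The supply of fucose showed genes on both sides. Fuk, the kinase that salvages free fucose, was 20.9 ± 5.25 CPM for SPF, 32.6 ± 5.29 in GF and 40.7 ± 3.25 in AF (SD, n = 2 each), with log2 fold changes of 0.64 (SE 0.25) and 0.96 (SE 0.25) against SPF. Fuca2, a fucosidase that removes the sugar, was 124 ± 50.4 CPM for SPF, 67.5 ± 2.88 in GF and 69.2 ± 9.06 in AF (SD, n = 2 each). Fuk and Fuca2 had unadjusted p of 0.0406 and 0.0340 in GF versus SPF, and 0.00797 and 0.0393 in AF versus SPF. Their adjusted p were 0.738 for both in GF, and 0.381 and 0.420 in AF. Over all 8 genes of the list, all tested, 5 stood lower in GF and 6 in AF than in SPF.

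Most genes that start mucin-type chains or build their cores stood lower outside SPF, without a call by the quasi-likelihood test. Of 17 tested of 19 listed genes for initiation and core structures, 15 had a negative log2 fold change in GF versus SPF and 16 in AF versus SPF. Their medians were -0.29 and -0.71, while 48.1% and 49.1% of all genes were lower. Galnt4, Gcnt1 and Gcnt3 counted as lower in GF at only -0.0089, -0.029 and -0.063. An unadjusted p under 0.05 was reached by 2 of 17 in GF and 5 of 17 in AF, all lower. The shares over all genes, in either direction, were 6.71% and 11.3%. The list was chosen with earlier results of these data known, so these counts are a description. The number lower rested in part on SPF replicate 3. Without that library 10 and 11 of 17 were lower, with medians of -0.078 and -0.31. Without GF replicate 3, 12 of 17 were lower in GF, with a median of -0.15. Without GF replicate 1 or SPF replicate 4 the GF median was -0.44. With limma 9 of 15 tested genes were lower in GF (47.9% of all genes), with a median of -0.074, and 14 of 15 in AF (74.6%). With library totals alone 12 of 17 were lower in GF (34.7% of all genes) and 17 of 17 in AF (66.0%).

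Galnt1, a widely expressed initiating enzyme, was 109 and 132 CPM for SPF, 84.7 and 80.1 CPM for GF, and 62.5 and 67.2 CPM for AF. The 3 groups did not overlap, in the order SPF, GF and AF, in a gene picked by its small p. Among all genes, both GF libraries stood below SPF for 17.1%, and both AF libraries for 22.6%. Its log2 fold change for AF versus SPF was -0.89 (SE 0.21) with an adjusted p of 0.371 by the quasi-likelihood test and 0.0340 by DESeq2, the only call in this list by any of the 4 tools. Gcnt2, which branches the chains, was 18.9 ± 4.59 CPM for SPF, 13.3 ± 1.37 in GF and 9.15 ± 0.167 in AF (SD, n = 2 each), with an adjusted p of 0.381 for AF versus SPF.

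Chain extension held B3gnt7, the gene with the smallest p against SPF among the glycosylation lists. This enzyme adds GlcNAc to build sulfated lactosamine chains. It was 45.9 and 32.2 CPM for SPF, 15.2 and 13.0 CPM for GF, and 8.56 and 9.21 CPM for AF. The 3 groups did not overlap, again in a gene picked by its small p. Its log2 fold change was -1.47 (SE 0.25) for GF and -2.14 (SE 0.25) for AF versus SPF, with quasi-likelihood adjusted p of 0.738 and 0.163. DESeq2 called it lower in both comparisons, with adjusted p of 0.00534 and 1.77e-07, and the likelihood ratio test with 0.00603 and 5.31e-07. B4galt1, a galactosyltransferase that builds the same chains, was 86.5 ± 7.59 CPM for SPF, 46.4 ± 5.42 in GF and 38.7 ± 6.76 in AF (SD, n = 2 each). For AF versus SPF its adjusted p was 0.304 by the quasi-likelihood test, 0.0156 by the likelihood ratio test and 0.0114 by DESeq2.

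B4galnt2 belongs to the same list, where GF stood below SPF for 11 of 17 tested genes and AF for 10 of 17. The medians were -0.30 for GF, or -0.17 without GF replicate 1, and -0.38 for AF, or -0.11 and -0.18 without SPF replicate 3 or 4. Its relative B4galnt1, which makes gangliosides, went the other way and was 213 and 234 CPM for SPF, 264 and 326 CPM for GF, and 339.6 and 260.0 CPM for AF. All GF and AF values of B4galnt1 stood above SPF, with log2 fold changes of 0.40 and 0.42 (SE 0.28 each) and adjusted p of 0.790 and 0.612. B4galnt3, which adds GalNAc to other chain ends, was 31.2 ± 13.5 CPM for GF and 71.2 ± 15.0 CPM for AF (SD, n = 2 each), with an unadjusted p of 0.0524 and an adjusted p of 1.00.

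In the sialic acid list 5 of 15 tested genes stood lower and 10 higher in GF than in SPF. In AF, 4 stood lower and 11 higher. The medians were 0.17 and 0.27, and none was called by any of the 4 tools. The quasi-likelihood test gave an unadjusted p under 0.05 for 2 of 15 in GF and 1 of 15 in AF, all higher. Over all genes the shares, in either direction, were 6.71% and 11.3%. Gne, of this list, was 25.4 ± 5.66 CPM for SPF and 37.6 ± 5.05 CPM for GF (SD, n = 2 each). Its quasi-likelihood adjusted p there was 0.738. The AF median was -0.15 with limma, beside -0.31 over all genes. Gal3st2, which adds sulfate to galactose, was 146 and 275 CPM for SPF, 53.4 and 69.5 CPM for GF, and 144 and 104 CPM for AF. Both GF values stood below all others, with a log2 fold change of -1.77 (SE 0.39) against SPF, called by DESeq2 (adjusted p = 0.0114) and the likelihood ratio test (0.0209) but not by the quasi-likelihood test (0.738). Papss2, which makes the sulfate donor, was 432 and 978 CPM for SPF and 286 and 248 CPM for GF, with an adjusted p of 0.738. Of the 8 tested sulfation genes, 5 stood lower in GF and 6 in AF than in SPF. In GF versus SPF an unadjusted p under 0.05 was reached by 2 of 8, Gal3st2 and Papss2, against 6.71% of all genes.

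The proteases that can release mucins from the surface included meprin, whose subunits are encoded by Mep1a and Mep1b. Mep1a was 101 and 119.9 CPM for SPF, 244 and 192 CPM for GF, and 103 and 76.8 CPM for AF. Both GF values stood above all others, and DESeq2 called the difference of AF from GF, by -1.28 on the log2 scale (SE 0.32, adjusted p = 0.0207), against 1.00 by the quasi-likelihood test. Mep1b was 634 and 1011 CPM for SPF, 639 and 670.5 CPM for GF, and 365 and 273 CPM for AF, and DESeq2 called it lower in AF than SPF with an adjusted p of 0.0125. Its quasi-likelihood adjusted p there was 0.385. Adam10, a membrane sheddase, was 49.3 ± 6.72 CPM for SPF and 27.0 ± 1.17 CPM for AF (SD, n = 2 each), with an adjusted p of 0.361. Of the 12 tested galectins and mucin sheddases, 9 stood lower in GF and 10 in AF than in SPF, with medians of -0.21 and -0.34, and the quasi-likelihood test called 0. Without SPF replicate 3, 6 of 12 stood lower in GF, with a median of -0.12.

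Most genes of the axis known to control Fut2 stood lower outside SPF, and Fut2 itself had a log2 fold change of 0.48 in both comparisons, with a sign that turned without SPF replicate 4. Il22 itself, made by lymphoid cells, had 0 counts in every library. Of 12 tested of 14 listed genes of IL-22 and STAT3 signalling, 10 stood lower in GF and 11 in AF than in SPF, with medians of -0.76 and -0.82. Without SPF replicate 4 the GF median was -0.49. An unadjusted p under 0.05 was reached by 6 and 7 of them, all lower, against 6.71% and 11.3% of all genes. The list, which holds Reg3g, was chosen with earlier results of these data known, so these counts are a description. Reg3g, a secreted lectin that kills gram-positive bacteria, was 1576 and 686 CPM for SPF, 216 and 237 CPM for GF, and 30.9 and 38.4 CPM for AF. DESeq2 called Reg3g lower in GF than SPF (adjusted p = 1.64e-04), in AF than GF (5.66e-07) and in AF than SPF (1.13e-26), while the quasi-likelihood adjusted p were 0.738, 1.00 and 0.119. Named after their values were seen, Stat3 was 112 and 159 CPM for SPF and 58.8 to 85.8 CPM elsewhere, and Il22ra1, the receptor subunit, 40.5 and 59.5 CPM for SPF and 20.7 to 35.2 CPM elsewhere. Over the same libraries Fut2 was 1.37 and 4.95 CPM for SPF and 2.99 to 5.97 CPM elsewhere.

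**Figure D4:**
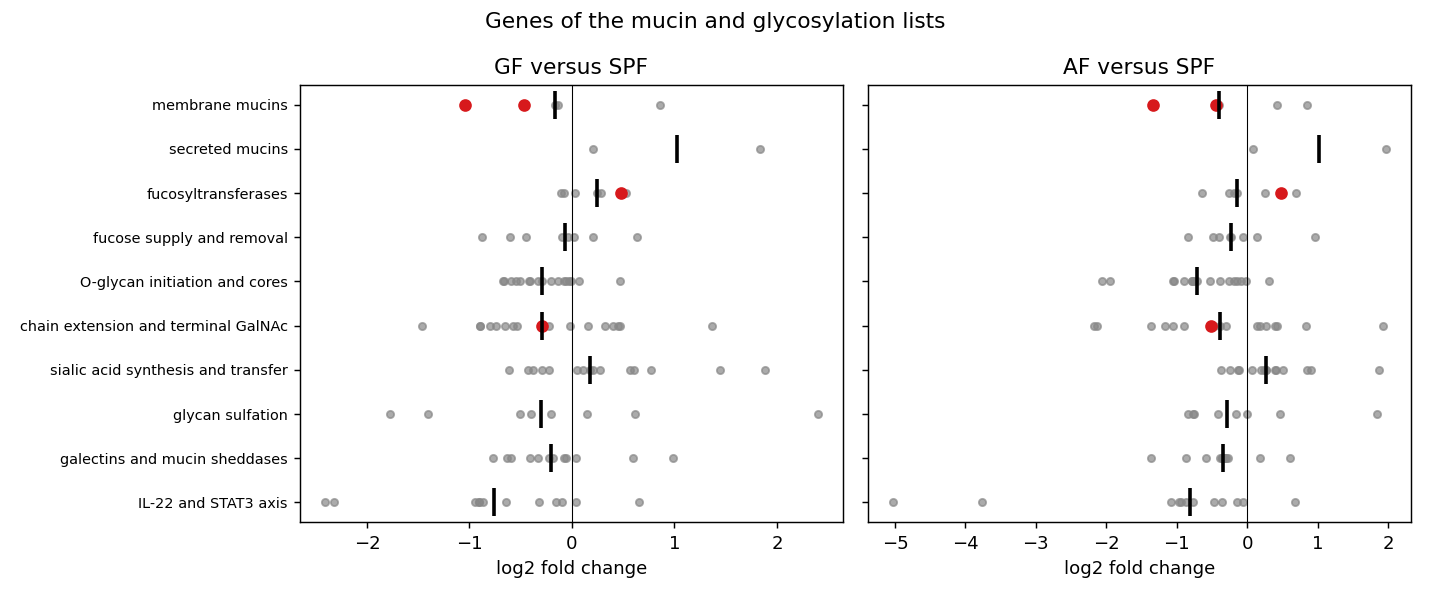
Log2 fold change (horizontal axes) of every tested gene of 10 lists (vertical axis) for GF versus SPF and AF versus SPF, with grey points for genes, red points for the members and black bars for list medians. The O-glycan initiation and IL-22 lists lie mostly left of 0, with medians of -0.71 and -0.82 in AF versus SPF, and Fut2 lies right of 0 in both panels.

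The genes nearest to each member in shape were sought among 8692 tested genes with a mean of at least 5 CPM, by the mean absolute gap in log2 CPM centred on each gene over the 6 libraries. Muc13 itself spanned 1.47 on this log2 scale, and its nearest genes were Slc35f2, a membrane transporter, at a gap of 0.084, Mlkl, the effector of necroptosis, at 0.096, and Dtx3l, a ubiquitin ligase, at 0.10. Slc35f2 was 69.7 and 76.5 CPM for SPF, 35.7 and 43.6 CPM for GF, and 32.0 and 26.7 CPM for AF, so its SPF libraries too stood above all others. For B4galnt2, which spanned 0.63, the nearest were Ptgfrn (0.032), Spty2d1 (0.036) and Bcap31 (0.037). For Muc4, which spanned 1.32, they were Capn5 (0.13), Ncbp1 (0.14) and Elovl7 (0.15), and for Fut2, which spanned 2.04, Hk1 (0.15), Eps8l1 (0.17) and Ssbp3 (0.17). Hk1, a hexokinase, was 10.4 and 1.85 CPM for SPF, 5.91 and 11.3 CPM for GF, and 8.95 and 8.38 CPM for AF, with the same highest and lowest libraries as Fut2. All points share the 6 libraries, and likeness over so few is a description.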

How the data were processed

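RNA of sorted small intestinal epithelial cells was sequenced in 6 libraries. Per the submitters' processing notes, STAR 2.5.2b, RSEM and edgeR 3.16.5 were used with GRCm38 (mm10), in roles not stated there. The deposited tables give RSEM expected counts and TPM per Ensembl gene, with an effective length and a posterior SD of the count (per the file headers), and 23.5% of expected counts above 0 were not whole. The deposited values were used as they stood, with expected counts rounded. Symbols and positions came from GENCODE M21, which named 51633 of 51912 genes, and promoters from RefSeq. No source used here gives the strand setting of the counting. Opposite-strand genes overlap exons of B4galnt2, Muc4 and Muc13, with at most 95 counts each in all libraries. RSEM's posterior SD was at most 0.232% of the count for the tested members.

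All 6 libraries entered 1 edgeR 4.0.16 quasi-likelihood fit (R 4.3.3) after filterByExpr and TMM scaling, which left 13644 genes, 3 residual degrees of freedom and a common biological coefficient of variation of 0.368. SE is the absolute log2 fold change over the square root of F. P-values were adjusted by Benjamini-Hochberg over all genes tested and called under 0.05. Alternatives were DESeq2 1.42.0, edgeR's likelihood ratio test, limma 3.58.1 on log2(TPM + 1), other scalings and filters, and fits without 1 library. Genes named were the members, fixed relatives and the 3 nearest genes per member. The 2 genes with the smallest p per list and comparison, at a mean of at least 5 CPM, were candidates. Some of these were named and others were left out. The members and lists were chosen with earlier results of these data known.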

Additional observations from a re-analysis of the deposited data

How the results depend on the processing

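With 2 libraries a group and 3 residual degrees of freedom, the quasi-likelihood test called 2 genes in GF versus SPF, 2 in AF versus GF and 6 in AF versus SPF. DESeq2 called 80, 51 and 269 in that order, the likelihood ratio test 97, 53 and 298, no filter on low counts 484, 264 and 804, library totals alone 0, 4 and 7, limma 5, 8 and 7, and fits of only the 2 groups compared 0, 8 and 2. Leaving out 1 library gave 0 to 369, 0 to 9 and 0 to 625 calls, with 369, 9 and 625 without SPF replicate 3. Muc13 in AF versus SPF passed the threshold with DESeq2 (-1.34) and the likelihood ratio test (-1.33), which made 1 member called by each. Over the 15 alternatives Muc13 ranged from -1.28 to -0.847 for GF versus SPF, -1.72 to -1.24 for AF versus SPF and -0.706 to -0.049 for AF versus GF, and B4galnt2 from -0.492 to -0.0947, -0.905 to -0.437 and -0.642 to -0.0282, all on 1 side of 0. Leaving out 1 library moved Fut2 between -0.164 and 1.68 for GF versus SPF, -0.418 and 0.576 for AF versus GF, and -0.155 and 1.69 for AF versus SPF. It moved Muc4 between -0.992 and 0.336, -0.0297 and 0.062, and -0.965 and 0.363. Fut2 in AF versus GF, 0.00074 in the reported fit, turned to -0.00634 with DESeq2, -0.000637 with the likelihood ratio test, -0.00489 with median-of-ratios factors, -0.239 with library totals, -0.0132 with no filter, -0.00201 with 1 CPM in 2 libraries and -0.424 with limma, and Muc4 there to -0.328 with library totals. The cause of these reversals was not tested. Library totals alone moved the median of all genes by 0.136 for GF versus SPF, -0.356 for AF versus GF and -0.216 for AF versus SPF, and limma on TPM moved it by -0.336 for AF versus GF and -0.319 for AF versus SPF. Relative to that median, Muc13 was -1.09, -0.21 and -1.32 under library totals. No paired analysis was possible because the groups share at most 1 replicate number.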
